A study of Mus musculus with 20 samples.

Results

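The comparison described here set colons lacking Pcca in the gut lining against colons of control mice, both from a high fat diet. It uses 8 of the 20 libraries of the series, chosen by their labels: HFD Vill 1 to 4, and HFD ff 1 to 4. HFD Vill mice were Villin-Cre Pcca knockouts, in which the villin promoter drives Cre in the intestinal epithelium, so the muscle, nerves, vessels and immune cells of the same colon section keep the floxed gene. HFD ff mice were littermates with the floxed Pcca allele (Pcca ff) that served as controls. All 8 were males moved at 6 weeks of age to a diet with 60% of its calories from fat (D12492, Research Diets), kept on it for 12 weeks, and killed at 18 weeks of age after a 4 h fast. The sources used here do not give the part of Pcca that is removed, nor the position of each section along the colon, nor whether the controls carry any Cre, so effects of Cre itself and of Pcca loss cannot be told apart. What was measured was poly-A RNA of flushed, frozen colon sections by sequencing, as raw read counts per gene. Levels are given as CPM, read counts scaled to the library total with TMM factors, fold changes are HFD Vill over HFD ff on a log2 scale, and errors of means are SD with n = 4 libraries per group.

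Propionate is a short-chain fatty acid that gut bacteria make from fibre, and propionyl-CoA also arises from branched-chain amino acids and odd-chain fatty acids. Propionyl-CoA carboxylase, a mitochondrial enzyme that needs biotin, adds a carboxyl group to it. Its alpha subunit is encoded by Pcca and its beta subunit by Pccb, and the product enters the citric acid cycle as succinyl-CoA. Colonocytes take up short-chain fatty acids from the lumen and burn them.

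Counted reads came to 18.5 to 24.2 M per HFD Vill library and 16.9 to 24.4 M per HFD ff library, and 17715 of 31184 listed genes passed the filter on low counts. Mitochondrial transcripts made up 4.66 to 6.98% of an HFD Vill library and 4.50 to 9.75% of an HFD ff library. Nuclear ribosomal RNA made up 1.62 to 1.89% of an HFD Vill library, above all controls at 1.17 to 1.32%, and its part in the results was not tested. The Y-linked gene Ddx3y had 1458 to 2412 reads per HFD Vill library and 1549 to 2756 reads per HFD ff library, and Xist had 12 reads or fewer in each library, as the label of male mice has it. The labels do not say that each library is a separate animal in so many words, so p-values measure the spread between these libraries.

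Before any contrast, 2 of the 4 control libraries stood apart from the other 6. HFD ff 1 and HFD ff 3 carried several genes of the ileum and of the more proximal hindgut at levels that no other library reached, and lacked genes of the distal colon. Slc10a2, the bile acid uptake carrier of the ileum, measured 5.01, 2.02, 5.11 and 1.59 CPM in HFD Vill 1 to 4, and 449, 4.95, 522 and 2.48 CPM in HFD ff 1 to 4. Hoxb6, a homeobox gene of body position, measured 5.61, 4.13, 0.904 and 3.44 CPM in HFD Vill and 196, 1.79, 175 and 4.77 CPM in HFD ff. Hoxb13, a homeobox gene of the hindmost gut, measured 65.7, 88.9, 279 and 149 CPM in HFD Vill, and 0, 274, 0.351 and 103 CPM in HFD ff. HFD ff 2 and 4 thus lay among the HFD Vill libraries for these 3 genes, while HFD ff 1 and 3 lay far outside.

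The split was broad. Of all tested genes, 2514 were higher in both HFD ff 1 and HFD ff 3 than in each of the other 6 libraries, and 2130 were lower. The first principal component took 48.6% of the variance and placed HFD ff 1 and 3 at -84.7 and -64.0, against -14.1, -14.0, 43.9 and 71.2 for HFD Vill and 40.9 and 20.8 for HFD ff 2 and 4. Spearman correlations across genes were 0.981 between HFD ff 1 and 3 and 0.980 between HFD ff 2 and 4, but 0.942 to 0.959 for the other pairs of controls. The tissue label itself was checked against 20 markers of small intestinal enterocytes. Lct, Apoa4, Slc2a2, Treh and Slc5a4a were under 1 CPM in all 8 libraries. Of the 15 markers tested, 4 were higher in both HFD ff 1 and 3 than in every other library, beside 2514 of all 17715 tested genes. Because both libraries are controls, the medians of the main gene lists and the fold changes of the leading genes below are given with all 8 libraries and also without HFD ff 1 and 3, which leaves 4 against 2.

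**Figure D1:**
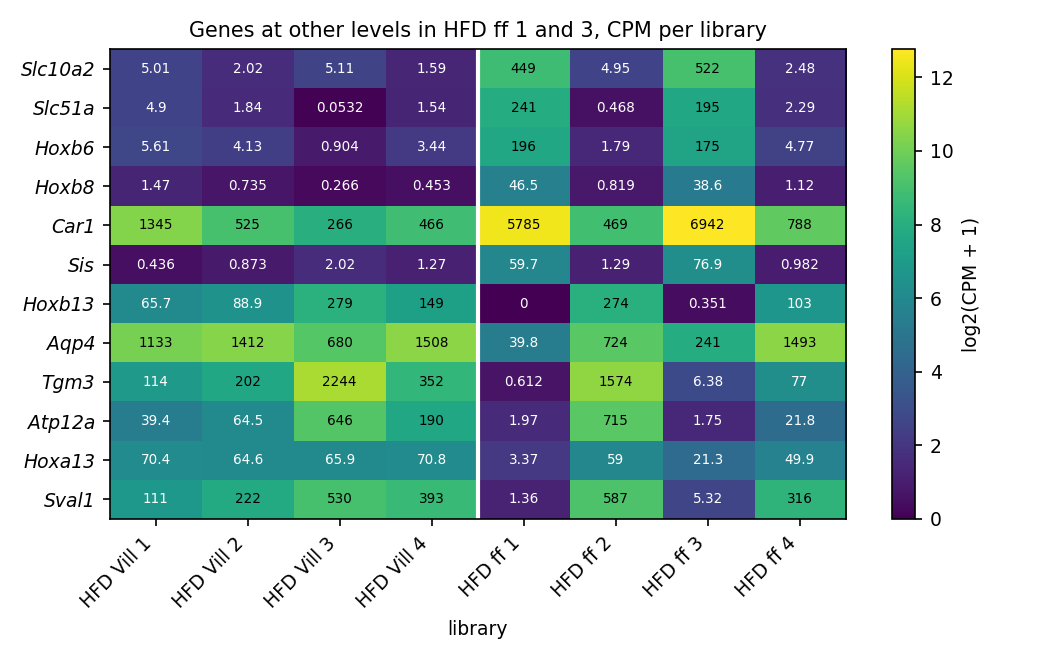
Levels of 12 genes (rows) in each library (columns, HFD Vill left of HFD ff), with CPM printed in each cell and colour giving log2(CPM + 1). HFD ff 1 and 3 are high for Slc10a2, Slc51a, Hoxb6, Hoxb8, Car1 and Sis and low for Hoxb13, Aqp4, Tgm3, Atp12a, Hoxa13 and Sval1, and the other 2 controls look like the HFD Vill libraries.

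The targeted gene was measured first. Pcca (ENSMUSG00000041650, chromosome 14, 122771736 to 123128512, mm39) measured 34.0, 37.3, 33.2 and 33.6 CPM in HFD Vill, and 29.9, 53.7, 32.5 and 59.5 CPM in HFD ff. The HFD Vill libraries lay close together and between the controls, with HFD ff 1 and 3 just below them and HFD ff 2 and 4 well above. Means were 34.5 ± 1.86 CPM in HFD Vill and 43.9 ± 14.9 CPM in HFD ff, a log2 fold change of -0.35 (95% interval -0.85 to 0.16, SE 0.22) that did not pass the test (edgeR adjusted p = 0.932, exact permutation p = 0.429). Without HFD ff 1 and 3 the log2 fold change was -0.71 (-0.98 to -0.45) and did not pass over all genes either (edgeR adjusted p = 1.00). For this gene alone the unadjusted edgeR p was 0.153 with all 8 libraries and 0.000358 without HFD ff 1 and 3. Those controls were set aside after their values were seen. The chow libraries of the same genotypes gave -0.67, with 30.4 ± 2.55 CPM in chow Vill and 48.6 ± 9.21 CPM in chow ff. A fold change counted over the whole transcript cannot check a deletion that leaves most of the transcript in place. Whole-colon RNA also cannot tell fewer cells of a type from less RNA per cell, which holds for every gene below.

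Pccb and Vil1 gave no change that passed the test. Pccb, the partner subunit, averaged 158 ± 16.8 CPM in HFD Vill and 146 ± 26.2 CPM in HFD ff (log2 0.12). Vil1, whose promoter drives the Cre, averaged 884 ± 201 CPM in HFD Vill and 758 ± 147 CPM in HFD ff (log2 0.22), so the epithelial transcript itself overlapped between the groups.

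Gm45774 was the only gene that edgeR called between HFD Vill and HFD ff with all 8 libraries. It is a long noncoding RNA on the minus strand of chromosome 8 (ENSMUSG00000110588, 94897376 to 94900040, mm39), 2665 bases long. It lies in the metallothionein cluster, overlaps Mt2 on the opposite strand by 749 bases and begins 5670 bases from Mt1, reading away from it. Metallothioneins are small cysteine-rich proteins that bind zinc, copper and cadmium, and zinc switches on Mt1 and Mt2 through the factor Mtf1 at metal response elements. The promoters of both genes are shown because Gm45774 overlaps the start of Mt2 and Mt1 is the next gene. The 250 bases before each RefSeq start are given 5′ to 3′ on the plus strand of GRCm38.p6, chr8:94178839-94179088 for Mt1 and chr8:94172368-94172617 for Mt2, with the core of the metal response element (TGCACNC or TGCGCNC, either strand) in capitals.

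Mt1: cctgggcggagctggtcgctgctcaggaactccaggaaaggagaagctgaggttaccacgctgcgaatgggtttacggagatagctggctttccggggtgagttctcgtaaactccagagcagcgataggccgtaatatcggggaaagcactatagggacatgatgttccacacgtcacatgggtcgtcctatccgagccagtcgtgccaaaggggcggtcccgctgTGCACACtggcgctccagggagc
Mt2: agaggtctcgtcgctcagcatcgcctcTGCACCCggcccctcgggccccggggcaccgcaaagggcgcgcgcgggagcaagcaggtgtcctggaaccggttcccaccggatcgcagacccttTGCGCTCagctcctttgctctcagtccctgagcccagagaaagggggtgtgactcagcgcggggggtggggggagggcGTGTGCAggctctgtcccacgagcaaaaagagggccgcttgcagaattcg

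The Mt1 window held 1 match, 23 bases before the start, and the Mt2 window held 3, at 223, 128 and 50 bases before it, the last on the minus strand. Of 32851 RefSeq promoter windows of this length, 21.4% held at least 1 match and 1.26% at least 3. A match is a description of the letters and not a measured site. Bases after the RefSeq start were not searched, so these counts do not compare the whole promoters of Mt1 and Mt2. These coordinates belong to GRCm38.p6 and are not on the same scale as the mm39 positions of the counted genes.

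Gm45774 measured 78.0, 61.5, 40.5 and 61.1 CPM in HFD Vill, against 0.0437, 0, 0.0585 and 0.0468 CPM in HFD ff. These were 1431, 1339, 761 and 1349 reads in HFD Vill, and 1, 0, 1 and 1 reads in HFD ff. Every knockout library thus carried the transcript at a moderate level and the controls had next to none, HFD ff 1 and 3 included. The means were 60.3 ± 15.4 CPM in HFD Vill and 0.0372 ± 0.0256 CPM in HFD ff, a log2 fold change of 10.54 (95% interval 9.63 to 11.45, SE 0.40, edgeR adjusted p = 2.07e-05). As a ratio of reads, 4880 in HFD Vill to 3 in HFD ff, scaled for depth, the difference was 1748-fold, with a 95% interval of 598 to 8478 that covers counting error only. On the same scale the edgeR interval is narrower than this counting interval. The edgeR SE and interval were worked back from the F test, so with 3 reads in HFD ff they are too narrow. The same holds for the other edgeR intervals of this gene. It was the 1 called gene of 17715, which is 0.00564% of genes tested. Without HFD ff 1 and 3 the log2 fold change was 11.12 (edgeR adjusted p = 0.00450).

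Mt1 (ENSMUSG00000031765, chromosome 8, 94905710 to 94906955) measured 104, 103, 99.7 and 106 CPM in HFD Vill, and 75.3, 36.5, 86.9 and 31.9 CPM in HFD ff. The 4 knockouts lay within a few CPM of each other and above each control, and among the controls HFD ff 1 and 3 were the higher ones. The means were 103 ± 2.73 CPM in HFD Vill and 57.7 ± 27.5 CPM in HFD ff. The log2 fold change was 0.84 (0.15 to 1.54, SE 0.31), which did not pass over all genes (edgeR adjusted p = 0.932, exact permutation p = 0.0286, the smallest that 4 against 4 can give). Without HFD ff 1 and 3 it was 1.60 (1.33 to 1.86) and passed (edgeR adjusted p = 0.0138). With the mean log2 CPM of the tested small intestinal markers as a covariate on all 8 libraries it was 1.53 and also passed (edgeR adjusted p = 0.0113). Of these 15 markers, 4 were highest in HFD ff 1 and 3, so this fit is not independent of leaving those controls out.

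**Figure D2:**
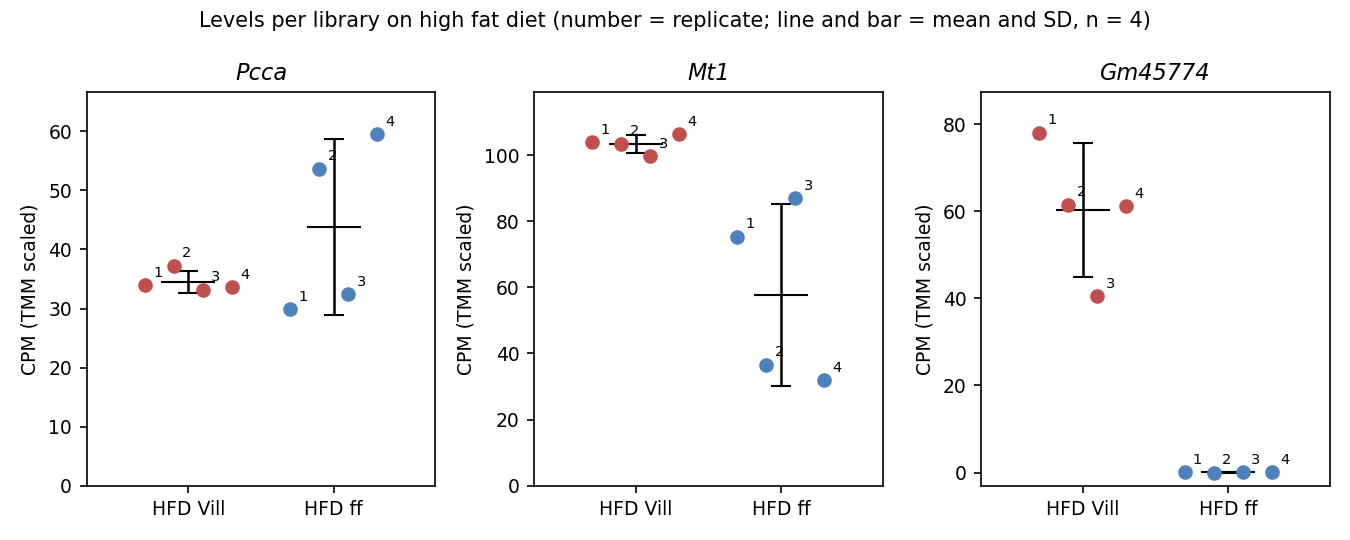
CPM of Pcca, Mt1 and Gm45774 in each library (points with replicate numbers; HFD Vill left, HFD ff right), with the mean and SD of 4 libraries. For Mt1 and Gm45774 every HFD Vill point lies above every HFD ff point, whereas for Pcca HFD ff 1 and 3 lie below the HFD Vill points and HFD ff 2 and 4 above.

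The rest of the metallothionein cluster was low or flat on the high fat diet. Mt4, known from squamous epithelium, had 9, 4, 5 and 14 reads in HFD Vill, and 0, 1, 0 and 0 reads in HFD ff. No control reached a knockout, but these counts were under the filter for 8 libraries, and the ratio of 34.4 had a counting interval of 5.74 to 1400. Where Mt4 could be fitted, without HFD ff 1 and 3, its log2 fold change was 3.90 (SE 1.11, edgeR adjusted p = 1.00). Mt2 had 19 reads in all in HFD Vill and 21 in HFD ff, too few to test, and the strand kept in counting is not given in the sources used here, so reads of Mt2 and of overlapping Gm45774 may not be separable. Mt3, best known from brain, gave a log2 fold change of -0.29 (197 reads in HFD Vill, 254 in HFD ff).

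The other tested genes around the cluster gave no change. Within 200 kb on either side of Gm45774, a window chosen after its values were seen, 16 genes were listed and 10 tested. Apart from Gm45774 and Mt1, the other 8 had log2 fold changes of -0.65 to 0.11, none with edgeR p under 0.05, and -0.54 to 0.48 without HFD ff 1 and 3. Bbs2, a ciliary protein gene, gave -0.12.

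**Figure D3:**
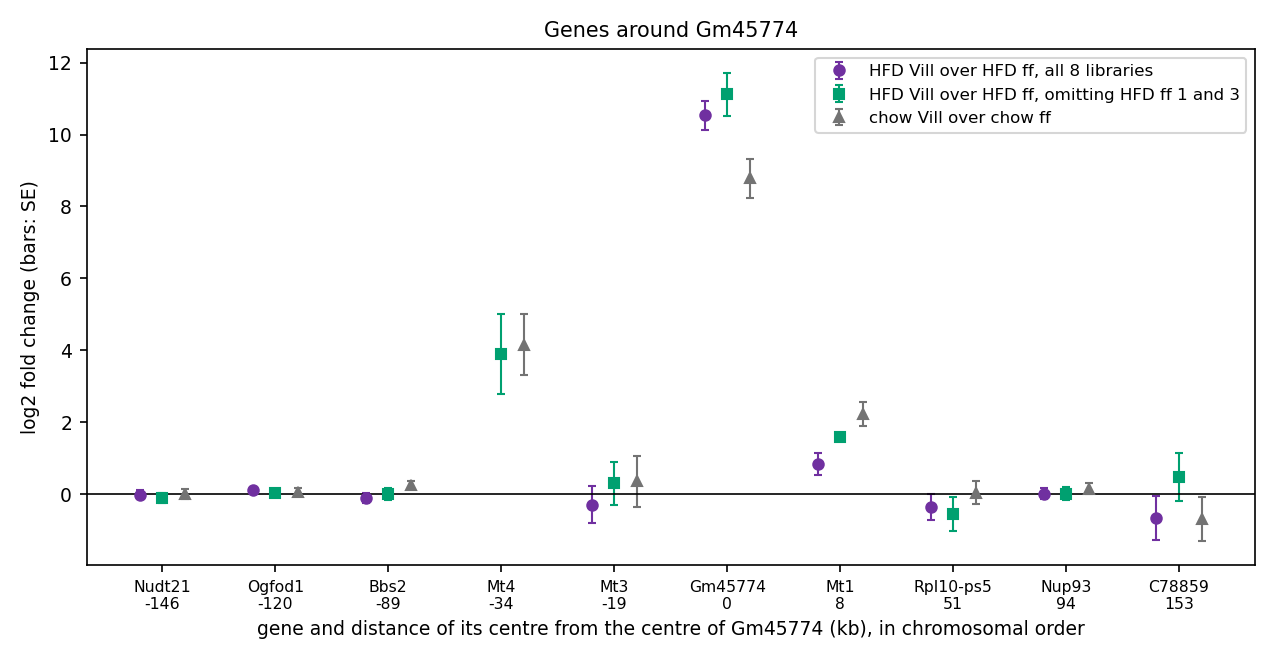
Log2 fold change with its SE (y axis) for genes within 200 kb of Gm45774, in chromosomal order with the distance of its centre in kb (x axis). Purple circles are HFD Vill over HFD ff in 8 libraries, green squares the same without HFD ff 1 and 3, and grey triangles chow Vill over chow ff. Gm45774, Mt1 and Mt4 (fitted only without HFD ff 1 and 3 and on chow) stand above 0, and the other genes lie closer to it, between -0.65 and 0.11 with all 8 libraries.

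Zinc handling outside the cluster showed no change that passed. Mtf1, the metal-sensing transcription factor, gave a log2 fold change of 0.21, and Slc39a14, a zinc importer, -0.43. Slc30a10, a manganese exporter, measured 2.07, 0.0459, 6.65 and 0.181 CPM in HFD Vill, and 35.3, 7.10, 45.8 and 0.327 CPM in HFD ff, with the highest values again in HFD ff 1 and 3. Of the 8 tested members of the metallothionein and zinc list, 3 were higher in HFD Vill and the median log2 fold change was -0.07, against -0.00 over all genes tested.

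The same genotypes on chow were set beside these values. The chow mice were 9 weeks old and carried Xist at 22573 to 59322 reads with no Ddx3y read, so diet, age and sex cannot be told apart between the 2 sets. Gm45774 averaged 70.3 ± 18.8 CPM in chow Vill and 0.154 ± 0.172 CPM in chow ff (log2 8.78, edgeR adjusted p = 1.36e-06). The genotype effect on Gm45774 differed between the diets (high fat diet minus chow) by 1.81 on the log2 scale (-0.42 to 4.05, edgeR adjusted p = 1.00). Mt1 averaged 286 ± 78.2 CPM in chow Vill and 60.8 ± 20.3 CPM in chow ff (log2 2.23, edgeR adjusted p = 0.0590). The difference of its genotype effect, high fat diet minus chow, was -1.39 (-2.34 to -0.43), which did not pass over all genes (edgeR adjusted p = 1.00). For Pcca the difference was 0.33 (-0.26 to 0.92, edgeR adjusted p = 1.00). These differences include HFD ff 1 and 3. Without them the HFD fold change was nearer the chow value for Mt1 (1.60 beside 2.23) and Pcca (-0.71 beside -0.67). For Gm45774 it was farther (11.12 beside 8.78). Mt4 had 177 reads in chow Vill and 10 in chow ff (log2 4.15, edgeR adjusted p = 0.916). Mt2 had 120 reads in chow Vill and 35 in chow ff (log2 1.65). Mt3 had 420 and 348 reads in the same order (log2 0.36). None of these cluster genes passed over all genes on chow. Over all genes the difference between diets was called for 0 of 19516 genes by edgeR (0% of genes tested), with 496 genes, or 2.54%, at an unadjusted p under 0.05. DESeq2 and limma-voom also called 0, with 594 genes (3.04%) and 429 genes (2.2%) under that unadjusted limit.

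Beyond Gm45774, the genes with the smallest p were a mix of small differences among all 8 libraries and large ones set by HFD ff 1 and 3. At an unadjusted edgeR p under 0.05 there were 612 genes, or 3.45% of those tested, of which 249 (1.41%) were higher and 363 (2.05%) lower in HFD Vill. A p limit of 0.05 alone would give 885.75 genes in data with no difference. The count of 612 moved to 234, 1306, 325 and 1124 genes when HFD ff 1, 2, 3 or 4 was left out in turn, and to 418 to 792 when an HFD Vill library was. Without HFD ff 1 and 3, 152 of 18500 genes (0.822%) had an unadjusted p under 0.05 and 2 were called (0.0108%), Gm45774 and Mt1. With the small intestinal covariate these were 146 (0.824%) and the same 2 genes (0.0113%). DESeq2 gave 791 genes (4.47%) under the unadjusted limit and called 2 (0.0113%), Gm45774 and Rn18s-rs5, and limma-voom gave 489 (2.76%) and called Gm45774 alone. Groups did not overlap for 217 genes (1.22%) that were higher and 161 (0.909%) that were lower. In data with no difference, 4 against 4 libraries would fail to overlap, in either direction, with a probability of 0.0286. Of the 363 lower genes, 270 were higher in both HFD ff 1 and HFD ff 3 than in all other libraries, and 28 of the 363 kept an unadjusted p under 0.05 without those libraries. Their median log2 fold change was -0.95 with all libraries and -0.29 without HFD ff 1 and 3. Of the 249 higher genes, 135 had HFD ff 1 and 3 as the lowest libraries and 33 kept an unadjusted p under 0.05, with medians of 0.39 and 0.28. None of the genes in the next 4 paragraphs passed the test over all genes (edgeR adjusted p = 0.932 for each).

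Several of the genes lower in HFD Vill at small p differed by little with groups that did not overlap. Apoe, the apolipoprotein of remnant lipoproteins and of macrophages, measured 77.6, 82.8, 84.4 and 93.0 CPM in HFD Vill, against 114, 116, 112 and 102 CPM in HFD ff. All 4 knockouts lay below all 4 controls, by a log2 fold change of -0.39 (SE 0.09, exact permutation p = 0.0286) that was -0.36 without HFD ff 1 and 3. The rule of smallest p favours groups without overlap, here and for the genes that follow, so the separation and that permutation p add no support. Cyba, the p22phox subunit of NADPH oxidases, measured 29.4, 36.2, 33.5 and 35.6 CPM in HFD Vill, and 43.7, 40.4, 47.0 and 45.9 CPM in HFD ff, also without overlap (log2 -0.39). Bglap3, a gene of the osteocalcin cluster whose copies are close in sequence, measured 5.99, 2.99, 3.30 and 5.30 CPM in HFD Vill, and 12.5, 7.57, 9.59 and 8.88 CPM in HFD ff (log2 -1.13). Reads of its copies may be split between them, so that value is uncertain. Wdfy1 gave -0.69 and Ccdc107 -0.75, and without HFD ff 1 and 3 they gave -0.63 and -0.31.

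The other genes lower in HFD Vill at small p were high in HFD ff 1 and 3. Cubn, the intrinsic factor receptor cubilin, measured 0.490, 0.368, 0.958 and 0.226 CPM in HFD Vill, and 30.4, 0.663, 29.2 and 0.608 CPM in HFD ff. Its log2 fold change was -4.90 with all libraries and -0.32 without those libraries. Slc10a2 gave -6.16 and -0.12, Hoxb8 -4.89 and -0.41, the gamma-glutamyltransferase gene Ggt1 -3.76 and -0.68, and the nuclease gene Dnase1l2 -2.05 and -0.52 in the same order. Abhd3, Chst11 and Gulp1 had groups that did not overlap and log2 fold changes of -1.64, -1.31 and -1.30, but -0.40, -0.13 and -0.46 without HFD ff 1 and 3.

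Genes higher in HFD Vill differed by less. H1f3, a replication-dependent linker histone gene, measured 4.36, 4.59, 4.68 and 2.81 CPM in HFD Vill, and 1.57, 2.18, 1.81 and 2.38 CPM in HFD ff (log2 1.04, SE 0.26). Every knockout lay above every control, and without HFD ff 1 and 3 the value was 0.85. Tmem37, a membrane protein gene, measured 18.8, 14.1, 20.5 and 15.6 CPM in HFD Vill, and 6.86, 12.4, 7.02 and 10.2 CPM in HFD ff (log2 0.92). Its lowest controls were HFD ff 1 and 3, and without them the value was 0.61. The pseudogene model Gm8730 measured 11.0, 9.97, 16.0 and 18.2 CPM in HFD Vill, and 7.17, 7.45, 6.49 and 6.36 CPM in HFD ff (log2 1.00 with and without HFD ff 1 and 3), and may share reads with its parent gene.

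The remaining higher genes had log2 fold changes of 0.27 to 0.75. Kifc1, a mitotic kinesin, measured 17.4, 18.0, 17.9 and 19.1 CPM in HFD Vill, and 12.8, 15.1, 12.2 and 13.7 CPM in HFD ff (log2 0.43). Incenp, of the chromosomal passenger complex, also gave 0.43, the splicing factor Sf3a1 0.27, the receptor tyrosine kinase Mst1r 0.39, the BCL6 co-repressor Bcor 0.34, Cep170b 0.43, Phrf1 0.32 and the talin gene Tln2 0.75. All 10 of the leading higher genes had groups without overlap, which the rule of smallest p favours. Hoxa13, the homeobox gene of the hindmost gut, measured 70.4, 64.6, 65.9 and 70.8 CPM in HFD Vill, and 3.37, 59.0, 21.3 and 49.9 CPM in HFD ff, with the least in HFD ff 1 and 3.

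**Figure D4:**
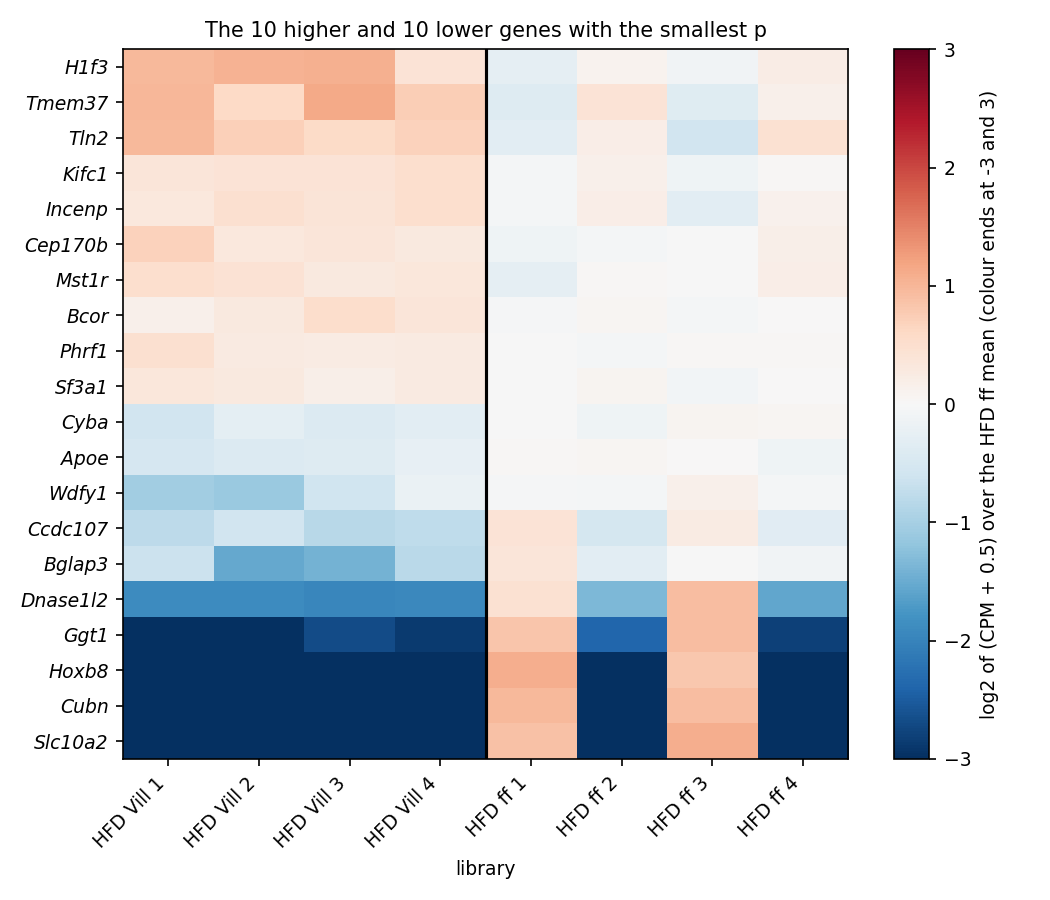
The 10 higher and 10 lower genes of smallest p (rows; models without a gene name left out), as log2 of (CPM + 0.5) over the mean of the HFD ff libraries, in each library (columns, HFD Vill left of HFD ff). Dnase1l2, Ggt1, Hoxb8, Cubn and Slc10a2 are as low in HFD ff 2 and 4 as in most HFD Vill libraries, or nearly so, and high in HFD ff 1 and 3.

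The enzymes that act with propionyl-CoA carboxylase gave no called gene. Of 19 tested genes of propionyl-CoA breakdown, 10 were higher and 9 lower in HFD Vill, with a median log2 fold change of 0.02 against -0.00 over all genes tested, and -0.07 without HFD ff 1 and 3. The lowest p of the list was that of Btd, biotinidase, which frees biotin for the carboxylases. Btd measured 8.61, 8.09, 9.74 and 7.70 CPM in HFD Vill, and 11.1, 10.3, 12.9 and 9.77 CPM in HFD ff, groups that did not overlap (log2 -0.37, edgeR adjusted p = 0.932). Mmut, the methylmalonyl-CoA mutase further down the route, averaged 84.7 ± 5.40 CPM in HFD Vill and 83.0 ± 8.46 CPM in HFD ff. The epimerase gene Mcee averaged 27.3 ± 3.73 CPM in HFD Vill and 29.3 ± 3.07 CPM in HFD ff. Both enzymes thus differed by less than the spread between libraries.

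Sources of propionyl-CoA were close to level as well. Of 18 genes of branched-chain amino acid breakdown, 11 were higher in HFD Vill, with a median of 0.05 and a range of -0.27 to 0.16, and none had an unadjusted p under 0.05. Of 11 genes of short-chain fatty acid transport, sensing and activation, 8 were higher, with a median of 0.18 that was -0.01 without HFD ff 1 and 3. Slc16a1, the monocarboxylate carrier MCT1, measured 367, 321, 464 and 381 CPM in HFD Vill, and 197, 337, 265 and 414 CPM in HFD ff, the lowest in HFD ff 1 and 3. Ffar3, a receptor for propionate and butyrate, averaged 2.15 ± 1.11 CPM in HFD Vill and 3.10 ± 1.69 CPM in HFD ff.

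Genes of bile acid transport, xenobiotic metabolism, fat absorption and fatty acid oxidation had medians below 0 with all 8 libraries, and medians of -0.11 to 0.06 without HFD ff 1 and 3. Of 7 tested genes of bile acid transport and sensing, all were lower, with a median of -0.72, and 5 were highest in HFD ff 1 and 3. Without these libraries the median was 0.06. Slc51a, a subunit of the basolateral bile acid exporter, measured 4.90, 1.84, 0.0532 and 1.54 CPM in HFD Vill, and 241, 0.468, 195 and 2.29 CPM in HFD ff. Fabp6, the ileal bile acid binding protein, measured 0.926, 5.70, 3.25 and 2.04 CPM in HFD Vill, and 25.6, 3.86, 18.0 and 2.20 CPM in HFD ff. For both, HFD ff 2 and 4 lay within or next to the knockout range.

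Xenobiotic metabolism followed the same split. Of 26 tested genes, 23 were lower in HFD Vill with a median of -0.62, and 14 had their highest values in HFD ff 1 and 3. Without them 16 of 26 were higher and the median was 0.06. Ugt1a1, the bilirubin glucuronosyltransferase, measured 2.67, 2.43, 1.65 and 1.49 CPM in HFD Vill, and 31.3, 1.72, 45.6 and 2.67 CPM in HFD ff. Cyp2d26, a cytochrome P450 gene, measured 18.5, 21.2, 21.6 and 21.2 CPM in HFD Vill, and 194, 21.0, 193 and 20.7 CPM in HFD ff, where the other 6 libraries lay within a few CPM of each other.

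Of 14 genes of fat absorption and lipoprotein assembly, 12 were lower with a median of -0.56, and 8 were lower with a median of -0.11 without HFD ff 1 and 3. Apob, the structural protein of chylomicrons, measured 192, 119, 222 and 138 CPM in HFD Vill, and 308, 257, 598 and 147 CPM in HFD ff (log2 -0.97, and -0.26 without HFD ff 1 and 3). Fatty acid oxidation and ketogenesis gave 22 lower genes of 32, with medians of -0.11 with all libraries and 0.03 without HFD ff 1 and 3. Pdk4, a kinase that spares glucose, measured 13.6, 8.64, 5.75 and 3.94 CPM in HFD Vill, and 35.0, 12.0, 31.6 and 9.77 CPM in HFD ff. It was highest in HFD ff 1 and 3, and its log2 fold change was -1.47 with all libraries and -0.45 without them.

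Scd1 and Fasn, both of fatty acid synthesis, differed in opposite directions without passing the test. Scd1, the stearoyl-CoA desaturase, measured 31.2, 17.8, 20.6 and 31.3 CPM in HFD Vill, and 33.6, 46.8, 32.6 and 35.2 CPM in HFD ff, without overlap (log2 -0.56, SE 0.21, edgeR adjusted p = 0.932). Without HFD ff 1 and 3 its log2 fold change was -0.70, and on chow it was 0.19. Fasn, fatty acid synthase, measured 217, 192, 208 and 181 CPM in HFD Vill, and 127, 202, 135 and 147 CPM in HFD ff, with HFD ff 2 inside the knockout range (log2 0.39, edgeR adjusted p = 0.932). Over the 19 genes of fatty acid synthesis the median was 0.00. The 24 genes of cholesterol synthesis and uptake were all higher, with a median of 0.21 and the largest at 0.35, but 21 of 24 were lower without HFD ff 1 and 3, with a median of -0.11. Sqle, squalene epoxidase, measured 189, 134, 117 and 181 CPM in HFD Vill, and 74.3, 160, 81 and 172 CPM in HFD ff, where HFD ff 1 and 3 were the lowest.

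Cell division genes were higher in HFD Vill by small amounts. Of 26 tested, 25 were higher with a median log2 fold change of 0.24, of which 3 had an unadjusted p under 0.05 and none was called, while 1.41% of all genes tested were higher at that limit. Mki67, the proliferation antigen Ki-67, measured 192, 232, 238 and 264 CPM in HFD Vill, and 159, 192, 146 and 193 CPM in HFD ff (log2 0.42, SE 0.14, edgeR adjusted p = 0.932, exact permutation p = 0.0857). Cdc20, which activates the anaphase-promoting complex, measured 33.0, 38.7, 34.3 and 38.8 CPM in HFD Vill, and 29.0, 27.2, 24.4 and 32.5 CPM in HFD ff, without overlap (log2 0.36). The spindle factor Tpx2 gave 0.41. These 3 genes gave 0.27, 0.28 and 0.17 without HFD ff 1 and 3. HFD ff 1 and 3 were the lowest libraries for 13 of the 26 genes, and without them 19 of 26 were higher with a median of 0.05. Crypt stem cell and Wnt target genes had a median of 0.13 over 14 genes, 0.11 without HFD ff 1 and 3, and -0.02 without HFD Vill 3 alone.

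Stress and energy genes gave small group medians. Of 19 genes of endoplasmic reticulum folding, 16 were higher with a median of 0.18, and 9 with a median of -0.00 without HFD ff 1 and 3. None of these 19 was higher in chow Vill than in chow ff, where the median was -0.20. Of 17 Atf4 target genes of the integrated stress response, 14 were higher with a median of 0.20, and 0.03 without HFD ff 1 and 3. Over 30 nuclear-encoded subunits of oxidative phosphorylation the median was 0.02 and no gene had an unadjusted p under 0.05. Of 20 genes of glycolysis and gluconeogenesis, 14 were higher with a median of 0.11, which was -0.01 without HFD Vill 1 alone. Pgam1, phosphoglycerate mutase, measured 195, 168, 151 and 164 CPM in HFD Vill, and 111, 151, 117 and 141 CPM in HFD ff, without overlap (log2 0.38, edgeR adjusted p = 0.932), and 0.22 without HFD ff 1 and 3. Slc2a5, the fructose carrier, measured 1.09, 1.19, 4.26 and 1.86 CPM in HFD Vill, and 5.33, 3.90, 8.89 and 2.53 CPM in HFD ff (log2 -1.29, and -0.61 without HFD ff 1 and 3).

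Defence genes varied more between libraries than between groups. Duox2, the hydrogen peroxide producing oxidase of the epithelium, measured 284, 161, 120 and 222 CPM in HFD Vill, and 79.5, 143, 117 and 138 CPM in HFD ff (log2 0.72, and 0.49 without HFD ff 1 and 3, edgeR adjusted p = 0.932). Nos2, the inducible nitric oxide synthase, measured 0.817, 23.1, 1.06 and 5.57 CPM in HFD Vill, and 0.831, 1.56, 2.46 and 1.78 CPM in HFD ff, and its log2 fold change was 2.21 with all libraries and 0.60 without HFD Vill 2. The acute-phase gene Saa3 measured 5.34, 3.49, 0.904 and 4.39 CPM in HFD Vill, and 41.2, 1.37, 30.5 and 4.07 CPM in HFD ff. Ang4, an antimicrobial angiogenin of goblet and Paneth cells, measured 640, 124, 113 and 5087 CPM in HFD Vill, and 177, 87.3, 96.5 and 2756 CPM in HFD ff. HFD Vill 4 and HFD ff 4 thus stood far above the rest for Ang4.

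Immune lists varied from library to library. The summed level of 26 interferon-stimulated genes was 290, 366, 539 and 1403 CPM in HFD Vill, and 285, 431, 1318 and 421 CPM in HFD ff, with HFD Vill 4 and HFD ff 3 the high ones. Its median log2 fold change was 0.10, and it was 0.88 without HFD ff 1 and 3, -0.76 without HFD Vill 4, -0.09 without HFD ff 1 and -0.04 without HFD ff 4. The 10 genes of MHC class II presentation had 8 lower members and a median of -0.38, which was -0.21 without HFD ff 1 and 3, 0.09 without HFD ff 3 alone and -0.97 without HFD Vill 4. They had sums of 92.7 to 618 CPM in HFD Vill, highest in HFD Vill 4, and of 118 to 855 CPM in HFD ff, highest in HFD ff 3. T cell and intraepithelial lymphocyte genes summed to 5.88 to 43.6 CPM in HFD Vill and 12.9 to 134 CPM in HFD ff, where HFD ff 3 was the highest. B and plasma cell genes summed to 421 to 1206 CPM in HFD Vill and 383 to 964 CPM in HFD ff, overlapping throughout.

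RNA levels of markers of the other cell layers differed widely between libraries. The summed level of 10 smooth muscle genes was 5717, 4503, 2371 and 1046 CPM in HFD Vill, and 5330, 2091, 4664 and 2830 CPM in HFD ff. Of these 10, 8 were lower in HFD Vill with a median of -0.16, and all 10 were higher with a median of 0.49 without HFD ff 1 and 3. The median was also above 0 without HFD Vill 4 alone (0.13) and without HFD ff 1 alone (0.08). Enteric neuron and glia genes summed to 182, 197, 111 and 24.3 CPM in HFD Vill and 309, 111, 205 and 122 CPM in HFD ff, with 13 of 14 lower and a median of -0.65, and with 12 of 14 higher and a median of 0.15 without HFD ff 1 and 3. HFD Vill 4 had the least muscle and nerve RNA, and HFD ff 1 and 3 the most among the controls. Adipocyte genes were lower in 11 of 11 tested, with a median of -1.02, and in 10 of 12 with a median of -0.32 without HFD ff 1 and 3. Plin1, the coat protein of fat droplets, was at 0.490 and 0.459 CPM in HFD Vill 1 and 2 and at 0 in HFD Vill 3 and 4, against 0.743, 1.48, 1.17 and 0.0468 CPM in HFD ff. The part of these layers in the results above was not tested.

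Epithelial cell type lists also had other levels in HFD ff 1 and 3. Distal colon genes summed to 2618, 2569, 3501 and 2915 CPM in HFD Vill, and 428, 3250, 922 and 2937 CPM in HFD ff, with a median of 0.54 that was 0.10 without HFD ff 1 and 3. Of 12 goblet cell genes 9 were higher with a median of 0.16, and 1 of 12 without those libraries, with a median of -0.12. The median was also below 0 without HFD Vill 4 alone (-0.16) and without HFD ff 3 alone (-0.07). Of 13 enteroendocrine genes 9 were lower with a median of -0.23, 4 of them with an unadjusted p under 0.05, where 2.05% of all genes tested were lower at that limit. There were 7 lower genes, a median of -0.08 and 0 genes under that limit without HFD ff 1 and 3. Nts, neurotensin, measured 1.36, 0.459, 0.426 and 0.498 CPM in HFD Vill, and 49.3, 0.156, 34.9 and 0.468 CPM in HFD ff. Chga, chromogranin A, measured 61.4, 64.1, 74.3 and 45.5 CPM in HFD Vill, and 125, 83.3, 152 and 51.0 CPM in HFD ff (log2 -0.74, and -0.13 without HFD ff 1 and 3). Of 21 genes of colonocyte ion and water transport 15 were higher with a median of 0.27, and 16 with a median of 0.11 without HFD ff 1 and 3. Car1, carbonic anhydrase 1, was the lowest in p of that list and measured 1345, 525, 266 and 466 CPM in HFD Vill, and 5785, 469, 6942 and 788 CPM in HFD ff.

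**Figure D5:**
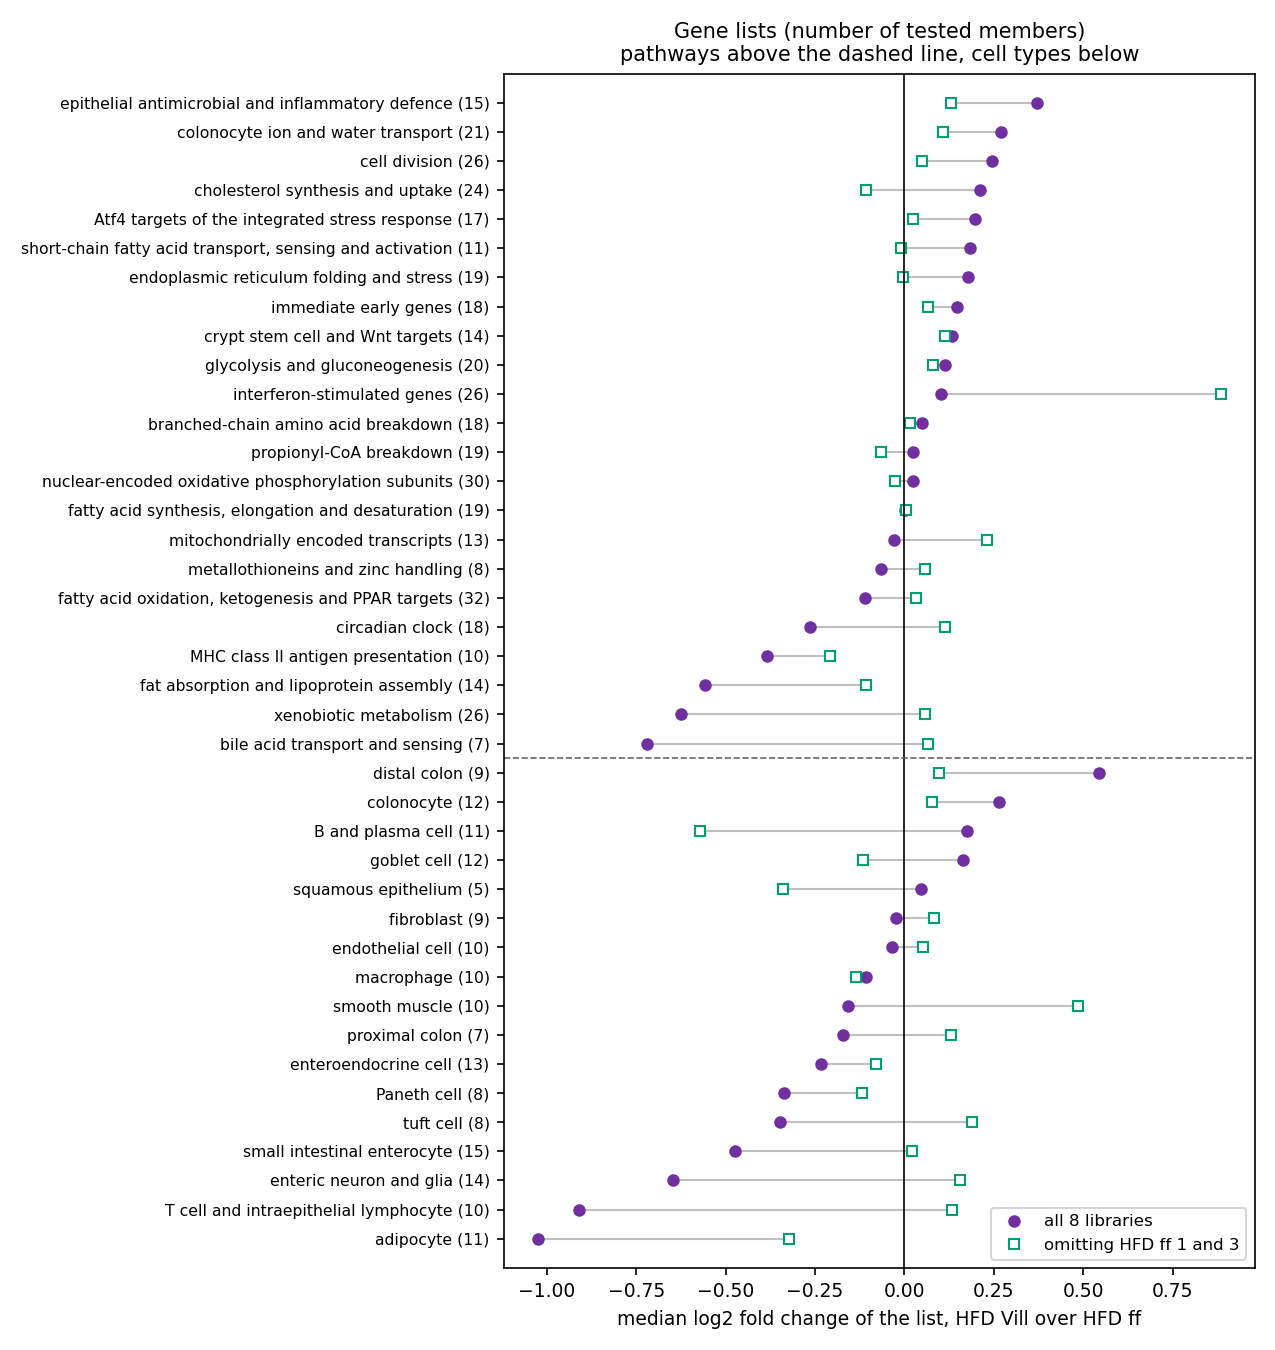
Median log2 fold change (x axis, HFD Vill over HFD ff) of each gene list with 5 or more tested members (rows, number of tested members in brackets), with all 8 libraries as filled circles and without HFD ff 1 and 3 as open squares. Pathway lists stand above the dashed line and cell type lists below it. The pathway lists farthest below 0 with all libraries, bile acid transport at -0.72 and xenobiotic metabolism at -0.62, lie at 0.06 without these controls, and interferon-stimulated genes lie at 0.10 and 0.88.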

How the data were processed

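Colon RNA of 4 HFD Vill and 4 HFD ff libraries was used, with 8 chow libraries of the same genotypes beside them. The deposited values used are raw read counts of each gene in each library, per the file headers. The 28 other per-sample columns and the deposited fold changes and p-values were not used. Per the submitters' processing notes the tools named are HISAT2 2.0.5, featureCounts 1.5.0-p3, DESeq2 1.20.0 and edgeR 3.22.5, and the genome is mm39. The annotation release and the strand setting are not given in the sources used here, so overlapping genes on opposite strands are uncertain.

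Counts were tested with edgeR 4.0.16 (R 4.3.3; quasi-likelihood F test, TMM scaling, default filter on low counts) in a fit of 8 libraries, and the difference between diets as an interaction in a fit of 16. Chow fold changes and p-values are a contrast of the same fit of 16. Benjamini-Hochberg adjustment ran over all tested genes, with 0.05 as the limit for a call. Scripts were tested on simulated data. DESeq2 1.42.0, limma-voom (limma 3.58.1), other scalings and filters, a replicate block and omission of each library were alternatives. So were omission of HFD ff 1 and 3, and a covariate (mean log2 CPM of the tested small intestinal markers). Exact permutation tests were 2-sided over all 70 assignments, with 0.0286 as the smallest possible p. Intervals of read ratios cover counting error only. The edgeR SE and intervals were worked back from the fold change and its F test.

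Named genes were Pcca, Pccb, Vil1, Gm45774, Mt1 and Mt2, the called genes, the 10 higher and 10 lower genes with the smallest p at a mean of 1 CPM or more, the 3 smallest p of each list, genes without overlap and an absolute log2 fold change over 1, called differences between diets, and the ends of the first principal component. Other named genes, such as Mt3, Mt4, Mtf1, Bbs2, Mmut, Mcee, Sqle, Ang4, Aqp4, Rn18s-rs5 and Gapdh, were chosen after their values were seen. Some genes are not reported here. The 23 pathway and 25 cell type lists came from general knowledge. The comparison, the members and the lists were chosen with earlier results of these data known.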

Additional observations from a re-analysis of the deposited data

Results flagged for a closer look

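In a group of 4, a library was singled out where its gap to the next one, as a share of the group's whole range, was above Dixon's critical value. Chance singles out about 1 in 20 groups, and 162 groups were tested. In HFD Vill, Tgm3 (transglutaminase 3) reached 2244 CPM in HFD Vill 3, Phrf1 78.6 CPM in HFD Vill 1, Nts 1.36 CPM in HFD Vill 1 and Ang4 5087 CPM in HFD Vill 4, each far above the other 3 libraries. Cyp2d26 had its lowest value, 18.5 CPM, in HFD Vill 1. Nuclear ribosomal RNA was highest in HFD Vill 3 at 1.89% of reads. In HFD ff, Tgm3 and the proton pump gene Atp12a were highest in HFD ff 2, at 1574 and 715 CPM. Mt4 was highest in HFD ff 2 at 0.0390 CPM, a single read. Wdfy1 was highest in HFD ff 3 at 76.5 CPM, and Ang4 in HFD ff 4 at 2756 CPM. Of the genes named, none had a genotype effect that differed between the diets by the test over all genes.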

How the results depend on the processing

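Gm45774 was called under every setting run, with log2 fold changes of 10.10 to 10.76 when a library was left out (edgeR adjusted p 2.52e-05 to 0.000456). The number of called genes was 1 under 19 of 22 alternatives. It was 2 with DESeq2, which added Rn18s-rs5, 2 without HFD ff 1 and 3, and 2 with the small intestinal covariate, both of which added Mt1. Pcca was not called under any of 21 alternatives (log2 -0.49 to -0.16 with a library left out), and the difference between diets called 0 genes under all 28. Without HFD ff 1 and 3 the sign turned for Pccb (-0.0708), Slc51a (0.60), Car1 (0.05), Mt3 (0.30), Bbs2 (0.0088), Slc39a14 (0.0567), Ffar3 (0.39), Sqle (-0.0918), Saa3 (0.38) and Nts (1.14). With the covariate it turned for Pccb (-0.0620), Mt3 (0.14), Bbs2 (0.0134), Ffar3 (0.28), Sqle (-0.0338), Saa3 (0.0850) and Nts (0.32). With a library left out it also turned for Mt3 (0.20 without HFD ff 1, with a range of -0.53 to 0.20) and for Ang4 (-1.42 without HFD Vill 4, with a range of -1.42 to 3.64). None of these genes passed the test. Leaving out 1 library turned the sign of the median of 17 of 40 gene lists. The cause of these turns was not tested. Other scalings shifted the median of all genes by -0.00 to -0.06.

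The labels do not say whether replicate numbers pair the samples. As deviations from their group means, same-numbered libraries correlated at -0.39 to 0.45 and other pairs at -0.49 to 0.51. Of 4 HFD Vill libraries, 2 correlated best with their own number. With so few libraries these values cannot decide whether the numbers are pairs. With the number as a replicate block 1 gene was called for HFD Vill against HFD ff, Pcca gave -0.28, and 0 genes were called between diets.

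With 4 libraries a group the median SE was 0.23, and 0.27 without HFD ff 1 and 3, so small differences could not be detected.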

Other observations

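Rn18s-rs5, an 18S ribosomal RNA gene, measured 16865, 16465, 18534 and 17754 CPM in HFD Vill, and 11966, 11120, 13026 and 12534 CPM in HFD ff. All knockout libraries lay above all controls, HFD ff 1 and 3 included. These reads belong to the nuclear ribosomal RNA share given above (1.62 to 1.89% in HFD Vill, 1.17 to 1.32% in HFD ff). They are therefore not a separate observation. The log2 fold change of Rn18s-rs5 was 0.52 (edgeR adjusted p = 0.932), and DESeq2 called the gene (DESeq2 adjusted p = 0.000161). On chow the log2 fold change was 0.04.

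Gapdh, which has many processed copies that share its reads, measured 142, 20.6, 15.6 and 16.4 CPM in HFD Vill, and 19.9, 80.2, 17.0 and 19.3 CPM in HFD ff. One library of each group, HFD Vill 1 and HFD ff 2, was far above the rest.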
